A study of Homo sapiens with 6 samples.

Results

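Integrins and laminins are the cell-surface receptors and the basement membrane proteins through which many cells hold on to their surroundings, and 38 human genes encoding them were followed here. The genes were taken by symbol: 18 integrin alpha subunits, 8 integrin beta subunits and 12 laminin chains, out of 27961 gene rows in the count files. Antisense genes and genes that only share part of the name, such as ITGBL1 and ITGB1BP1, were left out. Of the 38 genes, 29 had enough counts to be tested, 19 of them integrins and 10 laminins.

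The cells were SH-SY5Y, an established line from a human neuroblastoma, into which a lentivirus had brought a short hairpin RNA before their RNA was sequenced. The 3 groups of 2 libraries carried 1 hairpin against TARDBP (TRCN0000016038), control hairpin 1 (SHC007) or control hairpin 2 (SHC016). TARDBP encodes TDP-43, a nuclear RNA-binding protein. All 3 groups, controls included, were spun with virus and 8 µg/mL polybrene, and puromycin at 2 µg/mL was applied for 3 days, starting 48 hours after the virus. A single hairpin against TARDBP was used, so an effect of TDP-43 loss and any effect particular to that hairpin cannot be told apart. Separate cultures are not stated for libraries with the same hairpin, so a p-value here reflects no more than the differences among these libraries, possibly technical ones.

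An integrin is a pair of one alpha and one beta subunit that spans the membrane, binds matrix proteins outside the cell and is linked through adaptor proteins to actin inside it. The alpha subunit largely sets the ligand: laminin, collagen, or proteins such as fibronectin and vitronectin that carry the short peptide motif RGD. The beta subunit carries most of the contact with the adaptors. A laminin is a trimer of one alpha, one beta and one gamma chain, and it forms the sheet on which basement membranes are built. In neural crest derivatives, to which the sympathetic lineage of neuroblastoma belongs, integrins and laminins are known for their part in cell migration and in axon growth.

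Library totals ran from 18605745 to 21698339 counts, of which the 38 genes held 40337 to 71627 per library. Levels are given as CPM, counts relative to library size scaled by the TMM factors of edgeR, and a change is a log2 fold change from a quasi-likelihood fit, called at a Benjamini-Hochberg adjusted p below 0.05 over 17163 genes and repeat families. The words rose, fell, higher and lower in a test refer to such calls. TARDBP itself had 365 and 462 counts under its own hairpin, against 1587 and 1478 for control hairpin 1, and against 1761 and 1730 for control hairpin 2. Its level with the TARDBP hairpin was 26.2% of that in the controls (log2 fold change -1.93, SE 0.13, edgeR adjusted p = 1.68e-05). Of 10 noradrenergic neuroblastoma markers, 9 had enough counts to be tested; TH had 0 to 3 counts per library. The summed level of the 10 was 832 to 919 CPM with the TARDBP hairpin, 1828 to 2037 in control hairpin 1 and 1239 to 1425 in control hairpin 2. Against the mean of both controls, 7 of the 9 fell, where 24.3% of all features fell, and GATA3 rose. GATA3 had 238 and 206 CPM with the TARDBP hairpin, 205 and 193 in control hairpin 1 and 153 and 153 in control hairpin 2. The share of counts on repeat families was 24.7 to 25.7%, 23.4 to 24.8% and 20.6 to 20.9% in the same order. Of the markers of other cell types, the summed levels of the fibroblast and mesenchymal and of the epithelial lists were highest with control hairpin 2. The fibroblast and mesenchymal sums were 149 to 150 CPM with the TARDBP hairpin, 138 to 180 in control hairpin 1 and 231 to 277 in control hairpin 2, with PRRX1 at 0 counts throughout. DCN of that list went against the sum, with 6.26 and 8.31 CPM with the TARDBP hairpin against 2.00 and 2.12 CPM in control hairpin 2. The epithelial sums were 6.16 to 9.24 CPM with the TARDBP hairpin, 7.19 to 8.47 in control hairpin 1 and 10.5 to 11.7 in control hairpin 2. Most of the last sum was CLDN4, at 10.1 and 9.14 CPM. EPCAM was highest with the TARDBP hairpin (3.36 and 6.86 CPM) and KRT19 with control hairpin 1 (1.27 and 2.40 CPM). Leukocyte, endothelial and Schwann or glial marker lists summed to at most 12.1, 2.11 and 3.17 CPM, and CD3E, CDH5, FOXD3 and the epithelial KRT5 and KRT14 had 0 counts throughout. The part of these differences in the results on integrins and laminins was not tested. In bulk RNA, fewer cells of a type and less RNA per cell cannot be told apart.

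Promoter sequences were looked up because several of the genes moved in the same direction. They are shown for ITGB1, the most abundant integrin beta gene, which fell, for ITGA5, which fell by a similar or larger amount, and for ITGA4, which rose. Each is the 250 bases before the gene's start in RefSeq, build GRCh38.p14, written 5′ to 3′ on the strand of the gene. The positions are chr10:32958231-32958480 on the minus strand for ITGB1, chr12:54419267-54419516 on the minus strand for ITGA5 and chr2:181457136-181457385 on the plus strand for ITGA4. Capitals mark the GC box GGGCGG and the TEAD-type motif GGAATG, each on either strand.
ITGB1: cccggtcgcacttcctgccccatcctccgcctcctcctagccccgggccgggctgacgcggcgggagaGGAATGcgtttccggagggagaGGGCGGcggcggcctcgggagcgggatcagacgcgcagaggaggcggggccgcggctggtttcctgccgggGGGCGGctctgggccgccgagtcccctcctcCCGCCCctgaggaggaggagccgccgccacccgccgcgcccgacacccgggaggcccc
ITGA5: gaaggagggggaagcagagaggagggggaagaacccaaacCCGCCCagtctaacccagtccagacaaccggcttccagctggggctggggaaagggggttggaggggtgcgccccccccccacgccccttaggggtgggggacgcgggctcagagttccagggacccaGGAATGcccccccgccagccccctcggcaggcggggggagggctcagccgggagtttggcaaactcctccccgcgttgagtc
ITGA4: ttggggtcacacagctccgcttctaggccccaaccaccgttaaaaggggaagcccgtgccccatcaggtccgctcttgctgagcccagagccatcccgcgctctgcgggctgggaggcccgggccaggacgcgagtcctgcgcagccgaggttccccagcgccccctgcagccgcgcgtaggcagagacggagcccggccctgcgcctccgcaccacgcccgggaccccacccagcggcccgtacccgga
The ITGB1 window held 3 GC boxes and 1 GGAATG, the ITGA5 window 1 of each, and the ITGA4 window neither. These 3 windows were chosen with the directions of change known. Their GC contents were 78.4%, 70.0% and 72.8%, all above the median of 58.0% over 35116 promoters, while the median of all windows found for the integrin and laminin genes was 60.0%.

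Windows of the same length were found for 26 of the 38 genes, 33 windows in all, since some genes have several starts. Each of 6 motifs was searched on both strands, with overlaps between motifs allowed. GGGCGG was in 51.5% of the 33 windows and in 42.6% of all 35116 promoters. The genes were ITGA2, ITGA5, ITGA6, ITGA8, ITGAM, ITGB1, ITGB5, ITGB8, LAMA3, LAMA5, LAMB1, LAMB2, LAMB3 and LAMC1. Among these, ITGB5, ITGB8, LAMA5, LAMB1 and LAMB2 fell against neither control. GGAATG was in 12.1% against 11.9%, and the genes were ITGA5, ITGA10, ITGB1 and LAMA2. Of these, ITGA10 was not called and LAMA2 was not tested. Among the genes lower against both controls, ITGA6 and LAMB3 had GGGCGG without GGAATG. ITGA3, ITGA9 and ITGA11, lower against both as well, had a match to neither, and whether a window was found for them is not given here. A link between a motif and the direction of change was not tested. The AP-1 motif TGANTCA was in 6.06% against 6.57% (LAMA3 and LAMB3) and TATAAA in 6.06% against 10.7% (ITGA6, and ITGB1 at another start than the one shown). The E-box CACGTG was in 3.03% against 6.34% (ITGA6), and the ETS motif CCGGAAGT in 3.03% against 3.42% (ITGB5). These are matches of letters only, and no binding was measured.

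Against the mean of both controls, 6 of the 29 tested genes rose, where 23.9% of all features rose, and 9 fell, where 24.3% of all features fell. The 6 were 20.7% and the 9 were 31% of the 29, so the count of rises was near the background and that of falls a little above it. The median change of the 29 was 0.10, against 0.04 over all features. By library values, 4 of the 29 lay above all 4 control libraries in both TARDBP hairpin libraries (23.3% of all features did) and 7 lay below them (22.8% of all features). With the 4 control libraries pooled as one group, 0 of the 29 rose and 6 fell, where 6.14% and 8.84% of all features did so. Each control was also compared separately. These comparisons share the TARDBP hairpin or a control group with each other and are not independent.

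Against control hairpin 1, 8 of the 29 rose (21.1% of all features did) and 7 fell (21.8% of all features), with a median change of 0.38 against 0.03 over all features. The libraries did not overlap in 14 genes above control hairpin 1 (37.4% of all features) and 7 below it (34.5% of all features). Against control hairpin 2, 3 rose (24% of all features) and 12 fell (26.2% of all features), with a median of -0.21 against 0.02. There the libraries did not overlap in 6 genes above (38.5% of all features) and 14 below (37.8% of all features). Between the controls, 18 were higher with control hairpin 2 than with control hairpin 1 (22.8% of all features), and 0 were lower (20.4% of all features). The count of lower genes was also 0 at an unadjusted p below 0.05 and in DESeq2, and it was 1 without control hairpin 2 replicate 1. The median of that comparison was 0.87, against -0.01 over all features, and the libraries did not overlap in 19 genes above (37% of all features) and 2 below (37.8% of all features). The list of 8 fibroblast and mesenchymal markers went the same way, with 6 of 6 tested markers higher with control hairpin 2.

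Set side by side, the 29 genes took 9 patterns. Lower with the TARDBP hairpin than with either control were 7 genes, ITGA3, ITGA5, ITGA6, ITGA9, ITGA11, ITGB1 and LAMB3, or 24.1% of the 29, where 14% of all features were lower against both. Higher than with either control were 2 genes, ITGA4 and ITGA7, or 6.9%, where 10.6% of all features were. A further 5 genes, ITGAV, ITGB3, ITGB4, ITGB5 and LAMB4, were higher against control hairpin 1 and not called against control hairpin 2. In 4 genes, ITGA2, LAMA3, LAMA4 and LAMC1, the level was lower against control hairpin 2 and not called against control hairpin 1. LAMA1 was higher against the one and lower against the other, and ITGB7 was higher against control hairpin 2 alone. LAMB1 was called between the controls alone, and 7 genes were called in none of these comparisons.

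**Figure D1:**
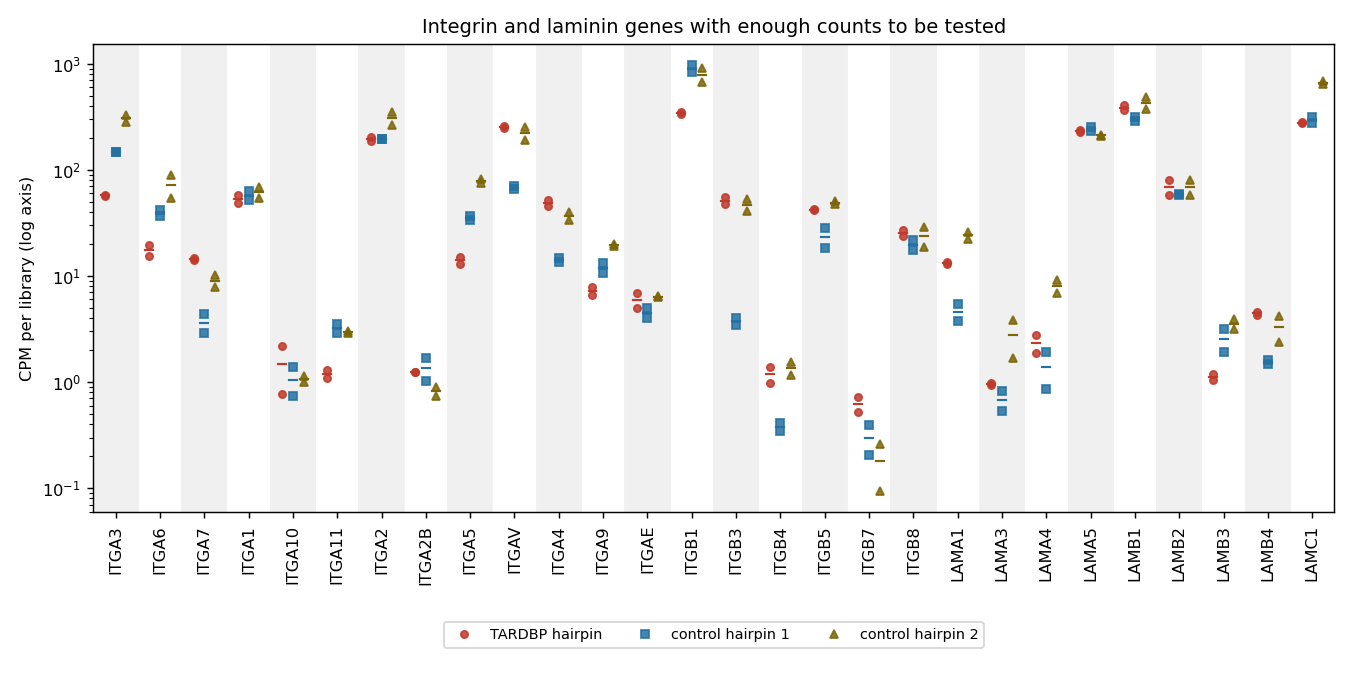
Level of the tested genes named in the text in each of the 6 libraries, in CPM on a log axis; points are libraries and short lines are group means. ITGB1 lies lower in both TARDBP hairpin libraries (333 and 355 CPM) than in all 4 control libraries (678 to 967 CPM), while ITGB3 stands apart in control hairpin 1 (3.47 and 4.02 CPM).

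**Figure D2:**
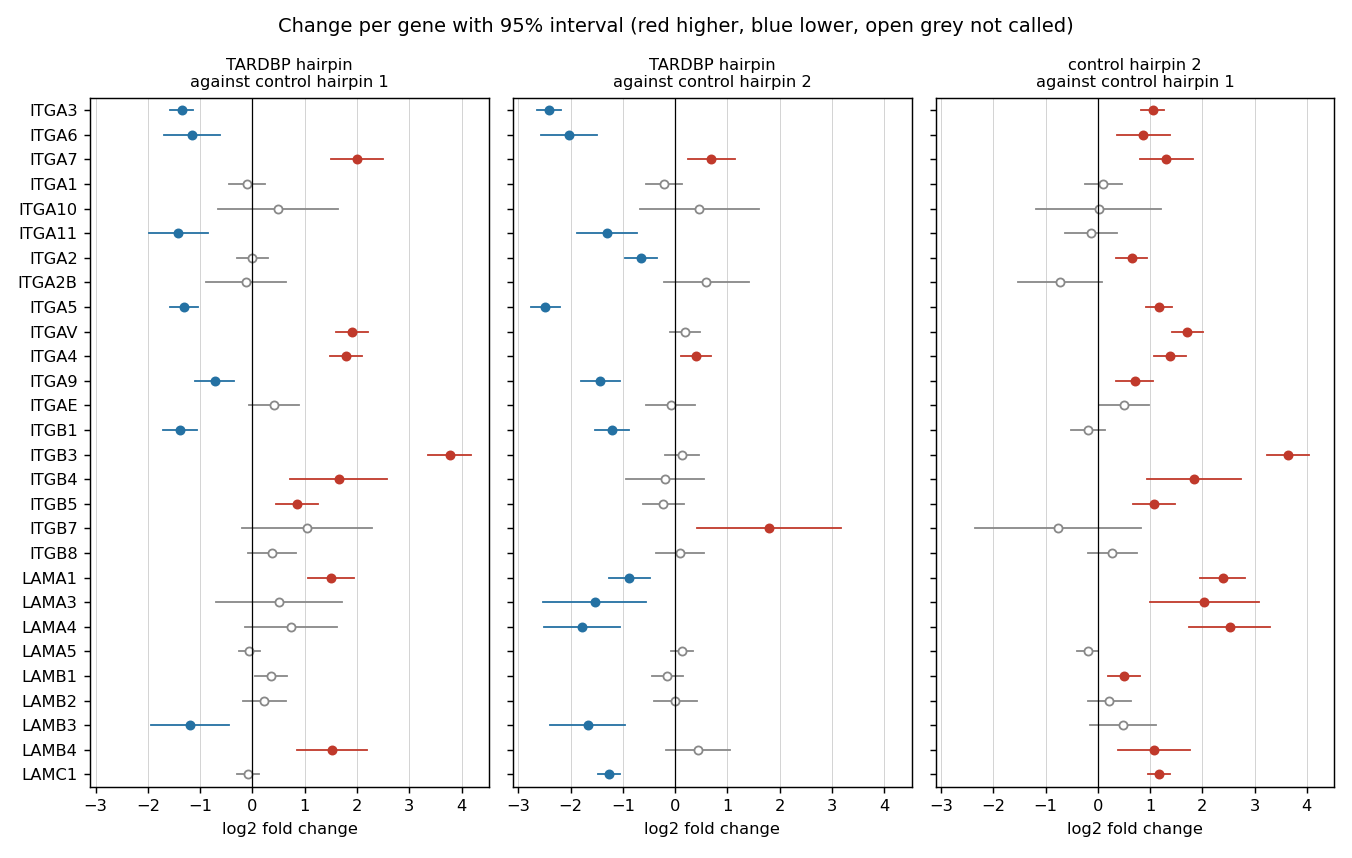
Log2 fold change of the tested genes named in the text in 3 comparisons, with its 95% interval from the edgeR fit; red points were called higher, blue points lower, open grey points not called. In the right panel every called gene is higher with control hairpin 2 than with control hairpin 1, the furthest being ITGB3 at 3.64.

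The gene for the beta subunit shared by most integrins, ITGB1, had 333 and 355 CPM with the TARDBP hairpin, 967 and 836 in control hairpin 1 and 903 and 678 in control hairpin 2. Both TARDBP hairpin libraries were below all 4 control libraries. ITGB1 fell 2.62-fold against control hairpin 1 (95% interval 2.09 to 3.29, log2 fold change -1.39, SE 0.14, edgeR adjusted p = 0.000153). Against control hairpin 2 it fell 2.30-fold (1.83 to 2.88, adjusted p = 0.000289). Between the controls the log2 difference of ITGB1 was -0.19 (interval -0.51 to 0.13, adjusted p = 0.302), which was not called with all libraries and was called without control hairpin 2 replicate 1 (-0.41, adjusted p = 0.0424).

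ITGB3, the beta subunit of the vitronectin receptor, had 55.0 and 47.4 CPM with the TARDBP hairpin, 3.47 and 4.02 in control hairpin 1 and 52.9 and 40.7 in control hairpin 2. The libraries of control hairpin 1 stood far below the other 4, and those of the TARDBP hairpin and control hairpin 2 overlapped. ITGB3 was 13.6-fold higher than with control hairpin 1 (10.3 to 18.1, edgeR adjusted p = 6.48e-06), and the controls differed 12.5-fold (9.38 to 16.6, adjusted p = 1.84e-05). Against control hairpin 2 the log2 difference was 0.13, with an interval of -0.20 to 0.46 (adjusted p = 0.476). ITGB5, the beta subunit of another vitronectin-binding integrin, was also lowest with control hairpin 1, with 42.5 and 41.8 CPM with the TARDBP hairpin, 18.3 and 28.3 in control hairpin 1 and 50.6 and 47.8 in control hairpin 2. It rose against control hairpin 1 (log2 fold change 0.85, SE 0.18, adjusted p = 0.0053), and against control hairpin 2 its log2 difference was -0.22 (-0.62 to 0.17).

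ITGB4, the partner of ITGA6 in hemidesmosomes, was low throughout, at 1.40 and 0.987 CPM with the TARDBP hairpin, 0.408 and 0.343 in control hairpin 1 and 1.16 and 1.55 in control hairpin 2. It was higher than with control hairpin 1 (log2 fold change 1.65, SE 0.40, edgeR adjusted p = 0.0112), a call lost without TARDBP hairpin replicate 1 (adjusted p = 0.0725) or without control hairpin 1 replicate 2 (adjusted p = 0.0686). ITGB7, which pairs with ITGA4 on lymphocytes, was lower still, between 0.0942 and 0.724 CPM. It was called higher against control hairpin 2 (log2 fold change 1.80, SE 0.60, edgeR adjusted p = 0.0362) on 43 counts over all 6 libraries. That call was lost without TARDBP hairpin replicate 1 (adjusted p = 0.157), without TARDBP hairpin replicate 2 (0.0676) and without control hairpin 2 replicate 2 (0.24). It was also lost in DESeq2 (0.146), with no filter (0.0558) and with the replicate block (0.0541). The log2 fold change of ITGB7 was 2.64 without control hairpin 2 replicate 1 and 1.18 without control hairpin 2 replicate 2. ITGB7 also shares 42.1% of its exon bases in GENCODE 29 with ZNF740 on the opposite strand, which had 3813 counts, and the sources used here do not give the strand setting of the counting. ITGB8, which activates latent TGF-beta together with ITGAV, ran from 17.6 to 29 CPM over the 6 libraries. Its levels with the TARDBP hairpin overlapped control hairpin 2 and lay above control hairpin 1, and it was not called.

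Among the 3 alpha subunits that bind laminin, 2 fell and 1 rose against each control. Of all features, 21.8% fell and 21.1% rose against control hairpin 1, and 26.2% fell and 24% rose against control hairpin 2. Counts out of 3 genes cannot be told apart from these shares. ITGA3, a main laminin receptor subunit, had 58.3 and 57.2 CPM with the TARDBP hairpin, 148 and 147 in control hairpin 1 and 328 and 284 in control hairpin 2. The groups did not overlap and their order was the TARDBP hairpin, control hairpin 1, control hairpin 2. ITGA3 fell 2.56-fold (2.19 to 2.98, edgeR adjusted p = 2.75e-05) against control hairpin 1 and 5.30-fold (4.52 to 6.21, adjusted p = 4.68e-06) against control hairpin 2. The controls themselves differed 2.07-fold (1.78 to 2.41, adjusted p = 0.000125).

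ITGA6, the other widely used laminin-binding subunit, had 19.7 and 15.3 CPM with the TARDBP hairpin, 41.6 and 36.8 in control hairpin 1 and 89.5 and 53.8 in control hairpin 2, in the same order as ITGA3 and without overlap. It fell by 1.16 on the log2 scale against control hairpin 1 (SE 0.23, edgeR adjusted p = 0.00451) and by 2.03 against control hairpin 2 (SE 0.24, adjusted p = 0.000255). ITGA7, a laminin-binding subunit best known from muscle, went the other way. Its levels were 14.1 and 14.8 CPM with the TARDBP hairpin, 4.33 and 2.89 in control hairpin 1 and 10.1 and 7.82 in control hairpin 2, again without overlap. It rose 4.01-fold (2.85 to 5.64, edgeR adjusted p = 0.000192) against control hairpin 1 and 1.62-fold (1.18 to 2.21, adjusted p = 0.0186) against control hairpin 2. The second call was lost without TARDBP hairpin replicate 2 (adjusted p = 0.07) and without control hairpin 2 replicate 2 (adjusted p = 0.161).

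The RGD-binding subunits ITGA5 and ITGAV moved in opposite directions against control hairpin 1, while against control hairpin 2 only ITGA5 was called. ITGA5, the alpha subunit of the classical fibronectin receptor, had 15.2 and 13.0 CPM with the TARDBP hairpin, 36.5 and 33.4 in control hairpin 1 and 82.0 and 75.5 in control hairpin 2. The 3 groups did not overlap. ITGA5 fell 2.48-fold (2.06 to 2.99, edgeR adjusted p = 7.98e-05) against control hairpin 1 and 5.59-fold (4.63 to 6.75, adjusted p = 5.27e-06) against control hairpin 2, and the controls differed 2.25-fold (1.89 to 2.68).

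ITGAV, the alpha subunit that pairs with ITGB3, ITGB5 and ITGB8, had 249 and 258 CPM with the TARDBP hairpin, 65.5 and 69.8 in control hairpin 1 and 251 and 192 in control hairpin 2. As with ITGB3, only control hairpin 1 stood apart, and the other 4 libraries overlapped. ITGAV rose 3.75-fold against control hairpin 1 (3.04 to 4.62, edgeR adjusted p = 2.22e-05). Against control hairpin 2 its log2 difference was 0.19, with an interval of -0.09 to 0.48 (adjusted p = 0.229), and was called without control hairpin 2 replicate 1 (0.40, adjusted p = 0.0279). ITGA2B, the alpha subunit of the platelet fibrinogen receptor, stayed between 0.737 and 1.68 CPM and was not called. ITGA8, which binds nephronectin, was not tested; it had 6 and 21 counts with the TARDBP hairpin and 0 to 2 in each control library.

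Of the closely related pair ITGA4 and ITGA9, which share ligands such as VCAM1 and osteopontin, one rose and the other fell. ITGA4 had 45.7 and 52.0 CPM with the TARDBP hairpin, 13.6 and 14.7 in control hairpin 1 and 40.3 and 33.7 in control hairpin 2, without overlap. It rose 3.45-fold (2.80 to 4.25, edgeR adjusted p = 3.08e-05) against control hairpin 1 and 1.32-fold (1.08 to 1.61, adjusted p = 0.0265) against control hairpin 2. The second call was lost without TARDBP hairpin replicate 2 (log2 fold change 0.30, adjusted p = 0.151) and without control hairpin 2 replicate 2 (0.24, adjusted p = 0.229). As ITGA7 and ITGB7 lost theirs too, the number of genes higher against control hairpin 2 was 0 without either library.

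ITGA9 had 7.86 and 6.54 CPM with the TARDBP hairpin, 10.6 and 13.3 in control hairpin 1 and 19.9 and 19 in control hairpin 2. The groups did not overlap. It fell by 0.73 on the log2 scale against control hairpin 1 (SE 0.17, edgeR adjusted p = 0.00812) and by 1.43 against control hairpin 2 (SE 0.16, adjusted p = 0.000234). The first call was just lost without TARDBP hairpin replicate 2 (adjusted p = 0.0508) and without control hairpin 1 replicate 2 (adjusted p = 0.053).

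Among the 4 collagen-binding alpha subunits, 0 rose and 1 fell against control hairpin 1, where 21.1% of all features rose and 21.8% fell. Against control hairpin 2, 0 rose and 2 fell, where 24% of all features rose and 26.2% fell. Counts of so few genes cannot be told apart from these shares. ITGA11, which binds fibrillar collagen, fell against both. It had 1.29 and 1.09 CPM with the TARDBP hairpin, 3.52 and 2.89 in control hairpin 1 and 3.00 and 2.87 in control hairpin 2, so that both TARDBP hairpin libraries lay below all controls and the controls overlapped. The log2 fold changes were -1.42 (SE 0.25, edgeR adjusted p = 0.00222) and -1.30 (SE 0.25, adjusted p = 0.00323). ITGA2, a collagen receptor subunit of epithelia and platelets, had 203 and 188 CPM, 195 and 196 CPM, and 350 and 263 CPM in the same order of groups. The TARDBP hairpin and control hairpin 1 overlapped (log2 interval -0.30 to 0.30), and the level was lower than with control hairpin 2 (log2 fold change -0.65, SE 0.13, adjusted p = 0.00414). ITGA1 ran from 49.1 to 69.3 CPM and ITGA10 from 0.734 to 2.18 CPM, both with overlapping groups and no call.

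Most of the integrins of leukocytes were at or near 0, ITGAE being an exception. ITGAL, ITGAM, ITGAX and ITGAD had 0 to 3 counts in each library, and their shared beta subunit gene ITGB2 had 2 to 8, so none of these 5 genes was tested. ITGAE, a subunit of intraepithelial lymphocytes, ran from 4.02 to 6.96 CPM and was not called. Its lowest levels were those of control hairpin 1, and the other groups overlapped. ITGAE shares 6.4% of its exon bases with HASPIN on the opposite strand, which had 423 counts against 667 for ITGAE. HASPIN was highest with control hairpin 2, at 128 and 175 counts. The strand setting of the counting is not given, and a part of HASPIN in the ITGAE counts was not tested. ITGB6, an epithelial partner of ITGAV, was not tested, with 7 and 6 counts with the TARDBP hairpin and 0 to 1 in each control library.

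Levels can be compared between genes only per length of transcript, here as CPM per kb of the exons of each gene in GENCODE 29. On that scale ITGB1 made up 73.8 ± 2.03% (SD, n = 2) of the summed level of the 8 beta genes with the TARDBP hairpin, 96.2 ± 1.01% with control hairpin 1 and 86.7 ± 0.757% with control hairpin 2. ITGB3 made up 15 ± 1.83%, 0.551 ± 0.108% and 7.02 ± 0.0557%, and ITGB5 8.43 ± 0.233%, 2.36 ± 0.922% and 5.11 ± 0.774%. The groups did not overlap in any of these shares. The summed beta level itself was 77.5 ± 1.28, 156 ± 14.4 and 152 ± 29.1 CPM per kb, so that the lower share of ITGB1 with the TARDBP hairpin went with a lower sum. ITGB3 itself had 11.6, 0.851 and 10.6 CPM per kb in the same order, and ITGB5 had 6.54, 3.61 and 7.63. Neither level was called different from control hairpin 2, so their larger shares than there went with the lower beta sum.

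Among the 18 alpha genes, ITGAV made up 38.7 ± 1.03% (SD, n = 2) of the summed level per kb with the TARDBP hairpin, 12.3 ± 0.582% with control hairpin 1 and 20.4 ± 0.659% with control hairpin 2. ITGA3 made up 7.38 ± 0.0908%, 22.5 ± 0.12% and 23.8 ± 1.36%. ITGAV was thus the first of the alpha genes with the TARDBP hairpin, followed by ITGA2 at 31.0 ± 1.69%. In the controls ITGA2 came first, with 37.0 ± 0.245% and 29.4 ± 1.26%, before ITGA3. With the longest protein-coding transcript as length, ITGA3 came before ITGA2 in the controls (32.6% against 26.8% and 33.9% against 21.0%), while ITGAV remained first with the TARDBP hairpin at 35.2%. Per kb of exons, the summed alpha level was 79.8 ± 0.109 CPM for the TARDBP hairpin, 66.9 ± 0.139 for control hairpin 1 and 132 ± 20.9 for control hairpin 2. ITGAV itself had 30.9, 8.23 and 27.0 CPM per kb in that order. Its larger share than in control hairpin 2 thus went with a lower alpha sum, while its own level was not called different there. Shares of a sum are not independent of each other, and they were not tested.

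**Figure D3:**
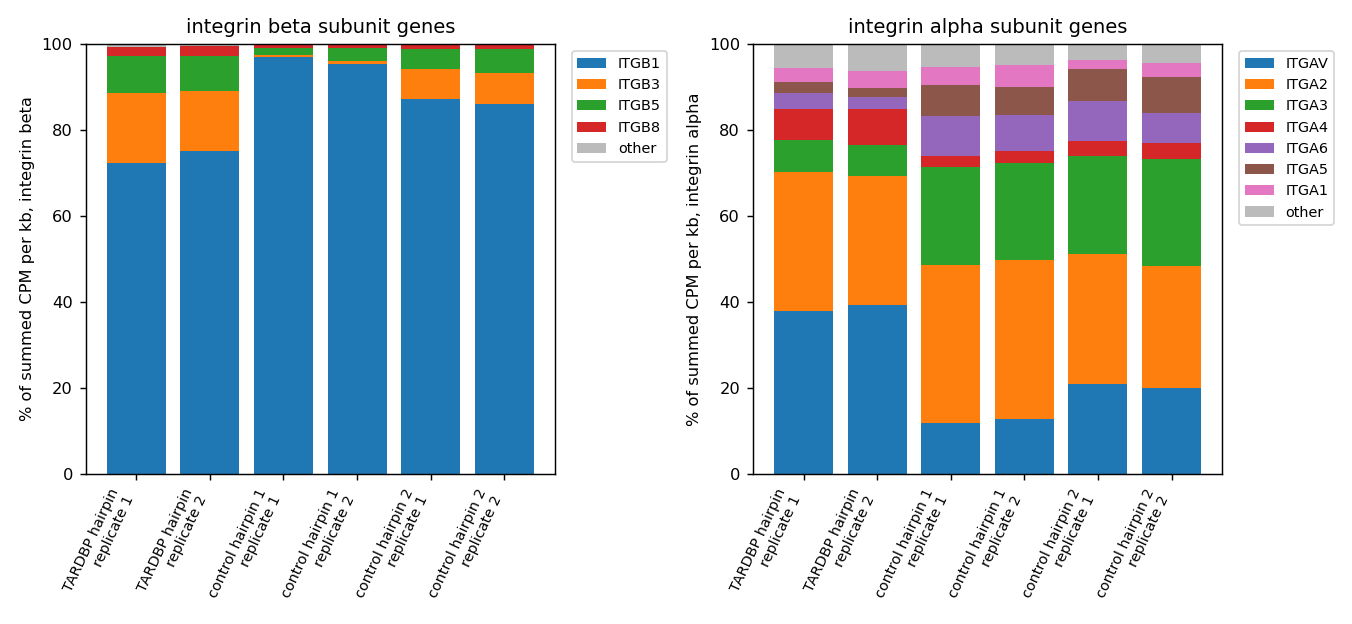
Share of each gene in the summed CPM per kb of the integrin beta genes (left) and alpha genes (right), 1 bar per library, in percent. ITGB1 takes a smaller share of the beta sum in both TARDBP hairpin libraries (72.3 and 75.2%) than in the 4 control libraries (86.1 to 96.9%), and ITGAV a larger share of the alpha sum. The mean alpha sum differed too, at 79.8 CPM per kb for the TARDBP hairpin, 66.9 for control hairpin 1 and 132 for control hairpin 2.

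Among the laminins, the most abundant chain of each kind was not called lower or higher with the TARDBP hairpin than with control hairpin 1. LAMA5, the widespread alpha chain of adult basement membranes, had 238 and 226 CPM with the TARDBP hairpin, 230 and 253 in control hairpin 1 and 214 and 209 in control hairpin 2. Its log2 difference was -0.06 (interval -0.26 to 0.14) against control hairpin 1 and 0.13 (-0.07 to 0.33) against control hairpin 2. Per kb, LAMA5 made up 93.7 ± 0.229%, 97.3 ± 0.526% and 86.0 ± 2.21% (SD, n = 2) of the alpha chain sum.

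LAMB1, the beta chain of most laminins, had 363 and 410 CPM with the TARDBP hairpin, 317 and 287 in control hairpin 1 and 483 and 375 in control hairpin 2. The TARDBP hairpin libraries lay above control hairpin 1 and overlapped control hairpin 2. The log2 difference from control hairpin 1 was 0.36 (SE 0.13, edgeR adjusted p = 0.0575) and missed the threshold in the model of all 6 libraries. That difference was 0.35 without control hairpin 2 replicate 1 and 0.33 without control hairpin 2 replicate 2. It was called in a fit on the 4 libraries compared (edgeR adjusted p = 0.0335). The crossed replicate block called it too (edgeR adjusted p = 0.00108). That block was added after the data were seen, so its p-value gives no independent support. LAMB2, the beta chain of synapses and kidney, ran from 57.5 to 80.1 CPM with overlapping groups and was not called.

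LAMC1, the gamma chain of nearly all laminins, had 276 and 279 CPM with the TARDBP hairpin, 278 and 312 in control hairpin 1 and 683 and 648 in control hairpin 2. The libraries of control hairpin 2 stood above the other 4. LAMC1 was 2.39-fold lower than with control hairpin 2 (2.07 to 2.77, edgeR adjusted p = 2.80e-05), and its log2 difference from control hairpin 1 was -0.09 (-0.30 to 0.12). The controls differed 2.26-fold (1.95 to 2.61, adjusted p = 7.12e-05). LAMC1 held 99.7 to 99.9% of the gamma chain level per kb. The summed gamma level was 33.1 ± 0.259, 35.1 ± 2.81 and 79.3 ± 2.85 CPM per kb.

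The embryonic alpha chain LAMA1 lay between the controls, with 13.4 and 12.9 CPM with the TARDBP hairpin, 3.72 and 5.48 in control hairpin 1 and 22.3 and 26.1 in control hairpin 2. It was higher than with control hairpin 1 (log2 fold change 1.51, SE 0.19, edgeR adjusted p = 0.000448) and lower than with control hairpin 2 (-0.88, SE 0.17, adjusted p = 0.00336), and none of the groups overlapped. LAMA4, the alpha chain of vessels and muscle, had 2.79 and 1.87 CPM, 0.867 and 1.91 CPM, and 6.95 and 9.14 CPM in the same order. The TARDBP hairpin and control hairpin 1 overlapped, and the level was lower than with control hairpin 2 (log2 fold change -1.79, SE 0.32, adjusted p = 0.00217). Against control hairpin 1 the log2 difference of LAMA4 was 0.74 (interval -0.14 to 1.62), which was called without control hairpin 1 replicate 2 (1.41, adjusted p = 0.0415). LAMA3, an epithelial alpha chain, was lower than with control hairpin 2 as well (-1.54, SE 0.43, adjusted p = 0.0173), at 0.935 to 0.983 CPM against 1.68 and 3.86. That call was lost without any 1 of TARDBP hairpin replicate 1 (adjusted p = 0.0586), TARDBP hairpin replicate 2 (0.0737) and control hairpin 2 replicate 2 (-0.85, adjusted p = 0.153).

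LAMB3, an epithelial beta chain, was the one laminin gene lower than with either control. It had 1.19 and 1.04 CPM with the TARDBP hairpin, 1.94 and 3.18 in control hairpin 1 and 3.16 and 3.96 in control hairpin 2, so that both TARDBP hairpin libraries lay below all controls. The log2 fold changes were -1.20 (SE 0.32, edgeR adjusted p = 0.0173) and -1.67 (SE 0.31, adjusted p = 0.00279). The first was lost without TARDBP hairpin replicate 1 (adjusted p = 0.0506), without TARDBP hairpin replicate 2 (0.0789) and without control hairpin 1 replicate 2 (-0.80, adjusted p = 0.12).

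LAMB4 had 4.55 and 4.31 CPM with the TARDBP hairpin, 1.48 and 1.62 in control hairpin 1 and 4.16 and 2.40 in control hairpin 2. It was higher than with control hairpin 1 (log2 fold change 1.51, SE 0.29, edgeR adjusted p = 0.00365), and its log2 difference from control hairpin 2 was 0.44 (-0.17 to 1.05), which was called without control hairpin 2 replicate 1 (0.88, adjusted p = 0.0395). LAMA2, an alpha chain of muscle, and LAMC3, a gamma chain, had 0 to 3 and 2 to 21 counts per library and were not tested.

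Between the control hairpins the largest called differences were those of ITGB3 (log2 3.64, SE 0.18), LAMA4 (2.52, SE 0.34, edgeR adjusted p = 0.000751) and LAMA1 (2.39, SE 0.19, adjusted p = 7.14e-05). LAMA4 depended on 1 library for its size, at 3.20 without control hairpin 1 replicate 2. ITGAV (1.71, SE 0.13), ITGA4 (1.39, SE 0.13) and ITGA7 (1.31, SE 0.22) were also higher with control hairpin 2. Several other calls were lost when 1 library was left out. The call of ITGA6 (0.87) was lost without control hairpin 1 replicate 1 (adjusted p = 0.0518), control hairpin 1 replicate 2 (0.0755) or control hairpin 2 replicate 1 (0.0789). ITGA9 (0.71) lost it without control hairpin 1 replicate 1 (0.0577), and ITGB4 (1.84) and LAMA3 (2.04) without control hairpin 2 replicate 2 (0.0543 and 0.0603, LAMA3 then at 1.32). LAMB1 (0.51) lost it without control hairpin 1 replicate 2 (0.0802) or control hairpin 2 replicate 1 (0.0946). LAMB4 (1.07) lost it without control hairpin 1 replicate 1 (0.105), control hairpin 1 replicate 2 (0.0647) or control hairpin 2 replicate 1 (0.139).

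Genes that work with integrins and laminins were counted in 4 lists, with the share of all features beside each count. Of 37 tested genes of the adhesion machinery inside the cell, 12 rose against control hairpin 1 (32.4%, all features 21.1%). There 10 fell (27%, all features 21.8%), and the median was 0.11. Against control hairpin 2, 2 rose (5.41%, all features 24%) and 22 fell (59.5%, all features 26.2%), with a median of -0.58. FERMT2, the kindlin that helps activate integrins, fell against both (log2 fold changes -0.86 and -1.64), as did ITGB1BP1, which binds the tail of ITGB1 (-0.74 and -0.77). CD9, a tetraspanin that associates with integrins, had 4.24 and 4.36 CPM with the TARDBP hairpin, 18.7 and 21.4 in control hairpin 1 and 7 and 7.68 in control hairpin 2 (-2.22 and -0.77, both called). The kinase PTK2B (0.88 and 1.64) and the adaptor TLN2 (0.66 and 0.31) rose against both controls, and PXN against control hairpin 1 (0.75).

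Of 12 tested basement membrane partners of laminin, 2 rose (16.7%, all features 21.1%) and 6 fell (50%, all features 21.8%) against control hairpin 1. The median was -0.45. Against control hairpin 2, 1 rose (8.33%, all features 24%) and 8 fell (66.7%, all features 26.2%), with a median of -1.18. NID1, which links laminin to collagen IV, had 67.6 and 73.3 CPM with the TARDBP hairpin and 148 to 187 CPM in the controls, and fell against both (log2 fold changes -1.18 and -1.39). PXDN, which crosslinks collagen IV, fell against both too (-1.46 and -1.27). COL4A2, a collagen IV chain, fell by 1.41 and 3.13. Its partner chain COL4A1 had 59.6 and 49.9 CPM with the TARDBP hairpin, 47.2 and 61.5 in control hairpin 1 and 536 and 471 in control hairpin 2, and was lower against control hairpin 2 alone (-3.20, edgeR adjusted p = 5.62e-06). NTN4, a netrin that binds laminin, rose against both (1.17 and 1.16). COL15A1 rose against control hairpin 1, where its level was 0 and 0.049 CPM.

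Of 16 tested laminin receptors other than integrins, with the enzymes that glycosylate dystroglycan, 3 rose against control hairpin 1 (18.8%, all features 21.1%). There 7 fell (43.8%, all features 21.8%), and the median was -0.17. Against control hairpin 2, 2 rose (12.5%, all features 24%) and 7 fell (43.8%, all features 26.2%), with a median of -0.27. The syndecans SDC3 (log2 fold changes -1.58 and -1.27) and SDC2 (-0.63 and -1.97), the dystrophin homolog UTRN (-1.38 and -0.56) and the O-mannosyltransferase POMT2 (-0.86 and -0.99) fell against both. SSPN, a membrane protein of the dystrophin complex, had 16 and 17.7 CPM with the TARDBP hairpin, 0.969 and 2.84 in control hairpin 1 and 10.8 and 11.8 in control hairpin 2. It rose against control hairpin 1 (3.13), as did SDC1 (0.88) and the glycosyltransferase POMGNT1 (0.32). Against control hairpin 2, SGCD, a sarcoglycan, rose (1.04).

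Of 21 tested integrin ligands other than laminins, 7 rose (33.3%, all features 21.1%) and 10 fell (47.6%, all features 21.8%) against control hairpin 1. The median was -0.47. Against control hairpin 2, 1 rose (4.76%, all features 24%) and 17 fell (81%, all features 26.2%), with a median of -1.41. The fibrillar collagen COL5A1 (log2 fold changes -1.71 and -2.70), COL6A1 of microfibrils (-1.40 and -1.07), the microfibril protein FBN1 (-1.20 and -1.94) and COL3A1 (-4.50 and -4.80) fell against both. FN1, the fibronectin that ITGA5 with ITGB1 binds, was 578 and 525 CPM with the TARDBP hairpin against 552 and 580 with control hairpin 1, and fell by 2.21 against control hairpin 2. VTN, the vitronectin that ITGAV with ITGB3 binds, had 9.83 and 9.30 CPM with the TARDBP hairpin and 2.09 to 5.32 in the controls, and rose against both (1.41 and 0.87). TGFB3 rose against control hairpin 1 (2.06). THBS1, thrombospondin, lay between the controls, as LAMA1 did, with 2.36 against control hairpin 1 and -0.75 against control hairpin 2, both called.

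**Figure D4:**
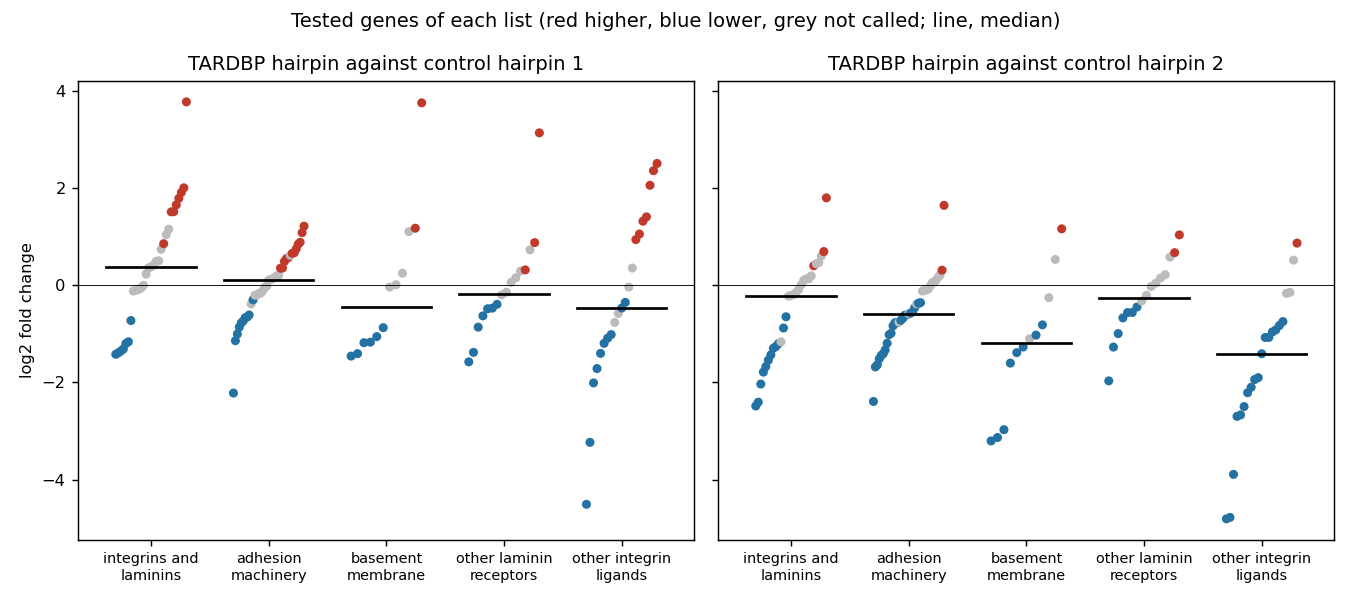
Log2 fold change of every tested gene of the integrin and laminin genes and of the 4 related lists, against control hairpin 1 (left) and control hairpin 2 (right); points are genes, red called higher, blue called lower, grey not called, and lines are medians. The median of the integrins and laminins is 0.38 on the left and -0.21 on the right, and the medians of the other lists are lower on the right as well.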

How the data were processed

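RNA from 6 libraries of SH-SY5Y cells was sequenced after Ribo-Zero depletion with a strand-specific kit, per the labels' protocols. The submitters' processing notes name bcl2fastq, STAR 2.5.2b and the build hg19. What the authors deposited are whole-number counts for each gene symbol and repeat family, not normalized; which tool, annotation and strand setting produced them is not given in the sources consulted. Depth sets the precision: low genes have wide intervals.

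In R 4.3.3 with edgeR 4.0.16, rows passing filterByExpr (minimum count 10, minimum total 15) were scaled by TMM and fitted in one 3-group quasi-likelihood model (3 residual degrees of freedom, biological coefficient of variation 10.5%). The Benjamini-Hochberg adjustment covered 17163 features. Each SE was derived from the log2 fold change and its F statistic. Alternatives were RLE scaling, no filter, gene rows alone, a replicate block, pooled controls, fits on 4 libraries, each library left out, and DESeq2 1.42.0; the crossed block and the longest-transcript lengths were added after the data were seen. The code was tested on simulated data. Members were named, with up to 4 called genes of lowest p per related list and all of any count of 5 or fewer. FN1 was named after its values were seen. A few named-rule genes are not reported here but remain within the counts. The members and lists were chosen with earlier results of these data known. Exon lengths and overlaps come from GENCODE 29 (GRCh38), promoters from RefSeq.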

Additional observations from a re-analysis of the deposited data

How the results depend on the processing

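Of 116 results (29 genes in 4 comparisons), 63 were called, 0 of these changed direction under any alternative, 52 kept their call under every alternative other than leaving out a library, and 40 under all. Of the 53 not called, 12 gained a call somewhere. Counts of called genes moved most with the controls pooled as one group, where 0 in place of 6 genes rose against the controls; this fit counts the difference between the controls as spread. Leaving out a library gave 5 to 9 higher and 8 to 9 lower genes against the mean of both controls, 8 to 10 and 5 to 7 against control hairpin 1, 0 to 6 and 11 to 12 against control hairpin 2, and 14 to 18 and 0 to 1 between the controls. Leaving out a library leaves a lone library in its group, which is assumed to vary like the others. ITGA2 and ITGB7, called against the mean of both controls at adjusted p of 0.0455 and 0.0389, lost that call under most alternatives. Genes of few counts, such as ITGB7 with 43 counts over all libraries, are limited by depth.

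The labels link libraries of different hairpins by a replicate number alone. Deviations of same-numbered libraries correlated at -0.331 and -0.353 between the TARDBP hairpin and control hairpins 1 and 2, and at 0.395 between the controls. What lies behind these correlations was not tested, and the main model has no term for it. With the replicate block, 5 genes rose and 9 fell against the mean of both controls, 8 and 7 against control hairpin 1, 2 and 12 against control hairpin 2, and 18 were higher and 0 lower between the controls. With the TARDBP hairpin numbers crossed, a setting added after the data were seen, the counts were 9 and 10, 11 and 7, 3 and 12, and 19 and 2. The shares of all features called with these blocks, or with a library left out, are not given here. The counts under these settings therefore cannot be set beside a background.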
